A study of Homo sapiens with 2 samples.

Results

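The HOX genes were read as 4 windows of the hg19 genome, 1 for each cluster, and the question was which ASH1 peaks lie in or near them in K562 cells. The windows, given with the gene list, are chromosome 7 from 27.03 to 27.35 Mb for HOXA, chromosome 17 from 46.50 to 46.91 Mb for HOXB, chromosome 12 from 54.23 to 54.55 Mb for HOXC and chromosome 2 from 176.85 to 177.15 Mb for HOXD. They are 320, 410, 320 and 300 kb long, 1.35 Mb in all and 0.0436% of the assembled chromosomes. The list holds 38 genes of the 20037 protein-coding genes in the RefSeq table: 10 each in HOXA and HOXB and 9 each in HOXC and HOXD. They were chosen as a gene family and not by a peak value, but with earlier results of these data known.

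The data are 2 lists of peaks from chromatin immunoprecipitation and sequencing (ChIP-seq) in K562, an established line of human leukaemia cells, with no treatment given in the labels. Both libraries were precipitated with in-house rabbit antibodies to the C-terminus of ASH1, the product of ASH1L. The submitters call them biological replicates, but antibody batch 1 served for replicate 1 and batch 3 for replicate 2, so batch and replicate cannot be told apart, and there was no second condition. The lists hold 910 and 4646 peaks, of which 905 and 4596 lie on the assembled chromosomes, and the number of reads behind them is unknown. Of those on the assembled chromosomes, 466 in replicate 1 and 459 in replicate 2 overlap a peak of the other list.

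HOX genes encode homeodomain transcription factors that give cells their position along the body axis. Within a cluster the genes are lined up in the order in which they are used from head to tail, and low-numbered genes act towards the head. In flies, trithorax-group proteins keep homeotic genes active and Polycomb-group proteins keep them silent. ASH1 belongs to the trithorax group and methylates histone H3 through its SET domain, and fly mutants of its gene show homeotic changes, so the HOX clusters are where binding by the mammalian protein would first be looked for. Several HOX genes, among them HOXA9, HOXA10 and HOXB4, act in blood progenitors.

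All 38 listed genes were found in the RefSeq table on the chromosome of their window. In that table HOXA runs from HOXA2 to HOXA13 with increasing coordinate, HOXB from HOXB1 to HOXB13, HOXC from HOXC13 to HOXC4 and HOXD from HOXD13 to HOXD1. The nearest other coding genes are SKAP2 and EVX1 for HOXA, SKAP1 and TTLL6 for HOXB, CALCOCO1 and SMUG1 for HOXC, and EVX2 and MTX2 for HOXD. Between the outermost members lie 23 long non-coding RNA genes, among them HOTAIR in HOXC, and 8 microRNA genes. The microRNA genes include MIR10A and MIR196A1 in HOXB, MIR196B in HOXA, MIR196A2 in HOXC and MIR10B in HOXD. The RefSeq coordinates belong to another build (GRCh38), so the place of each gene inside its hg19 window was not measured, but the span of the members is shorter than the window in all 4 clusters.

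To show the kind of sequence the windows cover, the 250 bases before the start site are printed for the lowest-numbered member of each cluster with an entry in the RefSeq promoter table (GRCh38.p14, 5′ to 3′ on the gene's strand), with every CG dinucleotide in capitals. CG is the target of DNA methylation, and runs of it mark CpG islands. HOXA2 acts in the branchial arches and hindbrain (chr7:27102684-27102933, minus strand), and HOXB1 in the hindbrain (chr17:48531012-48531261, minus strand). HOXC4 (chr12:54016638-54016887, plus strand) and HOXD1 (chr2:176188418-176188667, plus strand) are the members at the head end of their clusters.
HOXA2: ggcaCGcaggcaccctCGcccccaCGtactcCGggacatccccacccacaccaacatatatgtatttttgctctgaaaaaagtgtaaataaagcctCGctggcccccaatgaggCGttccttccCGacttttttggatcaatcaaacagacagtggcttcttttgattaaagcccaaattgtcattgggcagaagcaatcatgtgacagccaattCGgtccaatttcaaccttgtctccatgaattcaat
HOXB1: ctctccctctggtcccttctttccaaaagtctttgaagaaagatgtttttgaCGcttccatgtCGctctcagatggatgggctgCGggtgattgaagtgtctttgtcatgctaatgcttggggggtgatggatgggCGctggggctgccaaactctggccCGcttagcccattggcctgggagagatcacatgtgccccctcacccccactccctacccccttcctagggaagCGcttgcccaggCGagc
HOXC4: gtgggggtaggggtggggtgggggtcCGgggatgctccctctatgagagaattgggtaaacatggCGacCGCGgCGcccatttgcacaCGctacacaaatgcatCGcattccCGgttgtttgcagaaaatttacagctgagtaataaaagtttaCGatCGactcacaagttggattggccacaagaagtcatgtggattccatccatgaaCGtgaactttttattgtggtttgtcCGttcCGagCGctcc
HOXD1: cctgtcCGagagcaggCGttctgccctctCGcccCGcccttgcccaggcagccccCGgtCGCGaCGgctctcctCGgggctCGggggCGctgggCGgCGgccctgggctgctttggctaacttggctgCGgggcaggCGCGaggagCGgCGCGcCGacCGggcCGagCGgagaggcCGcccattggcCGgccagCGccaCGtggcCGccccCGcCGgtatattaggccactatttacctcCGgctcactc

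The HOXD1 stretch holds 31 CG dinucleotides and is 74.8% G or C, and 10.9% of the 35116 promoters in the table hold at least as many. The other three are not CG-dense: HOXC4 holds 14 (44.8% of promoters hold at least as many), HOXA2 holds 8 (56.3%) and HOXB1 holds 7 (58.9%), against a median of 11 over the table. The motif GAGAG, the letters bound by the fly GAGA factor, was searched on both strands without counting overlaps. It occurs 4 times in HOXD1, 3 times in HOXB1, once in HOXC4 and not in HOXA2, and 53.9% of all promoters of the same length hold it. Only 20 of the 38 members (52.6%) have an entry, fewer than the 80% required, so no composition of the whole family is given.

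No HOX window held an ASH1 peak in either list. In replicate 1 the HOXA, HOXB, HOXC and HOXD windows held 0, 0, 0 and 0 peaks, and in replicate 2 they held 0, 0, 0 and 0. None of the 38 genes, from head-end members such as HOXA2 and HOXB1 to tail-end members such as HOXA13, HOXC13 and HOXD13, which shape the limbs, hair or genital tract, was therefore under a listed peak, as far as the windows contain them. The chromosomes themselves carried peaks: 31 and 324 on chromosome 7 in replicates 1 and 2, 38 and 189 on chromosome 17, 53 and 220 on chromosome 12, and 51 and 351 on chromosome 2. A count of 0 among 905 peaks allows a share of up to 0.331%, and a count of 0 among 4596 a share of up to 0.0653%, where 3 counts are taken as the limit; this covers counting error only.

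These counts of 0 have to be read against how few peaks windows of this size would hold. At the mean density of its chromosome, the HOXA window would hold 0.0623 peaks in replicate 1 and 0.652 in replicate 2. The HOXB window would hold 0.192 and 0.954, the HOXC window 0.127 and 0.526, and the HOXD window 0.0629 and 0.433. Over all 4 windows the sums were 0.444 and 2.565 peaks. The limit of 3 counts thus allows the windows together a density of up to 6.76 times that of their chromosomes in replicate 1 and 1.17 times in replicate 2. For single windows in replicate 2 it allows up to 3.14 times (HOXB), 4.61 times (HOXA), 5.70 times (HOXC) and 6.93 times (HOXD). Neither list can therefore show that the HOX windows held fewer peaks than their chromosomes, and a count of 0 in replicate 1 leaves room for a density several times higher. With scores of at least 70 or 100 the replicate 1 limit was 16.8 or 42.3 times.

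**Figure D1:**
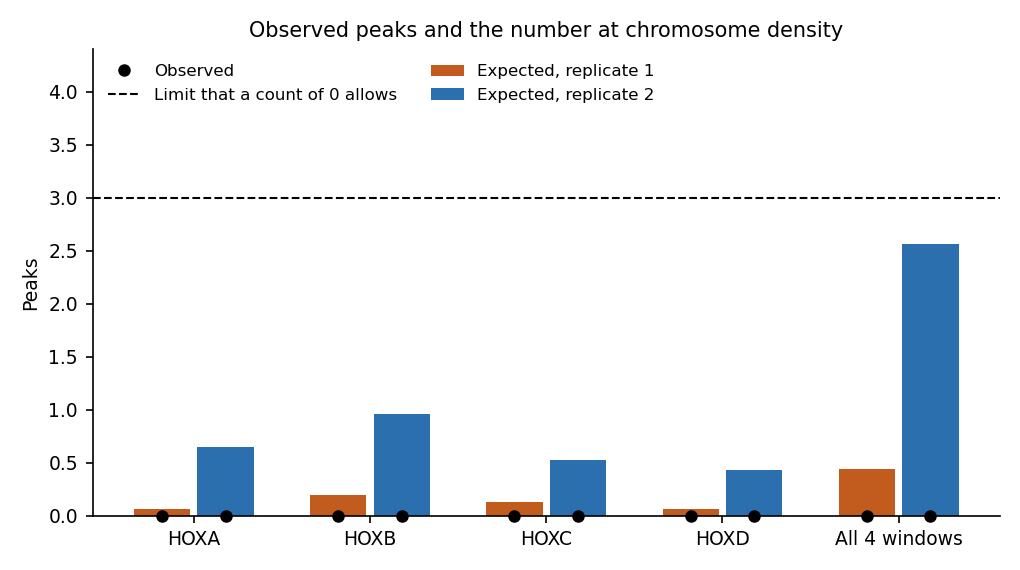
Bars give the number of peaks each HOX window, or all 4 together, would hold at the mean density of its chromosome, by replicate (y axis, peaks); black points give the observed number and the dashed line the limit of 3 counts. All observed points lie at 0, and every bar lies below the limit, the highest being 2.565 for all 4 windows in replicate 2.

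Windows without a peak were common on these chromosomes. Cut into tiles as long as its own HOX window, chromosome 7 had at least 1 peak in 6.02% of tiles in replicate 1 and 31.1% in replicate 2. The shares were 15.6% and 40.2% for chromosome 17, 9.31% and 28.6% for chromosome 12, and 5.67% and 26.6% for chromosome 2. A tile with no peak was thus the more frequent kind on each of the 4 chromosomes in both lists, and the HOX windows were of that kind.

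Bins of 1 Mb are longer than the windows, and 5 of them hold a HOX window, since HOXD spans a bin boundary. In replicate 1, 1 of these 5 bins held a peak (chromosome 17 from 46 to 47 Mb, 1 peak), and in replicate 2, 1 of 5 did (chromosome 2 from 177 to 178 Mb, 1 peak); both peaks lie outside the windows. Over the 620 bins of these 4 chromosomes, 19.7% held at least 1 peak in replicate 1 and 58.5% in replicate 2, and over all 3113 bins of the assembled chromosomes 17% and 50.2% did. By chromosome the shares in replicates 1 and 2 were 14.4% and 56.2% on chromosome 7, 32.9% and 68.3% on chromosome 17, 25.4% and 59% on chromosome 12, and 15.6% and 56.6% on chromosome 2. A bin without a peak was thus the more frequent kind in replicate 1 and the less frequent kind in replicate 2, where 4 of the 5 HOX bins were without one.

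Each of the 3113 bins was tested against its share of its chromosome's length with a two-sided exact binomial test, adjusted by the Benjamini-Hochberg method over all bins of a list. Higher counts were called in 0.803% of bins in replicate 1 and 4.69% in replicate 2, and lower counts in 0% of bins in both. None of the 5 HOX bins was called. The lowest unadjusted p among them was 0.38 in replicate 1 (HOXB bin, 1 peak against 0.468 expected) and 0.18 in replicate 2 (HOXB bin, 0 peaks against 2.33 expected; exact test, adjusted p = 0.97). A bin with 0 peaks could not be called on any chromosome: the lowest adjusted p of any such bin was 1 in replicate 1 and 0.45 in replicate 2. Neighbouring peaks are not independent, so these p-values describe the lists and not the spread between experiments.

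**Figure D2:**
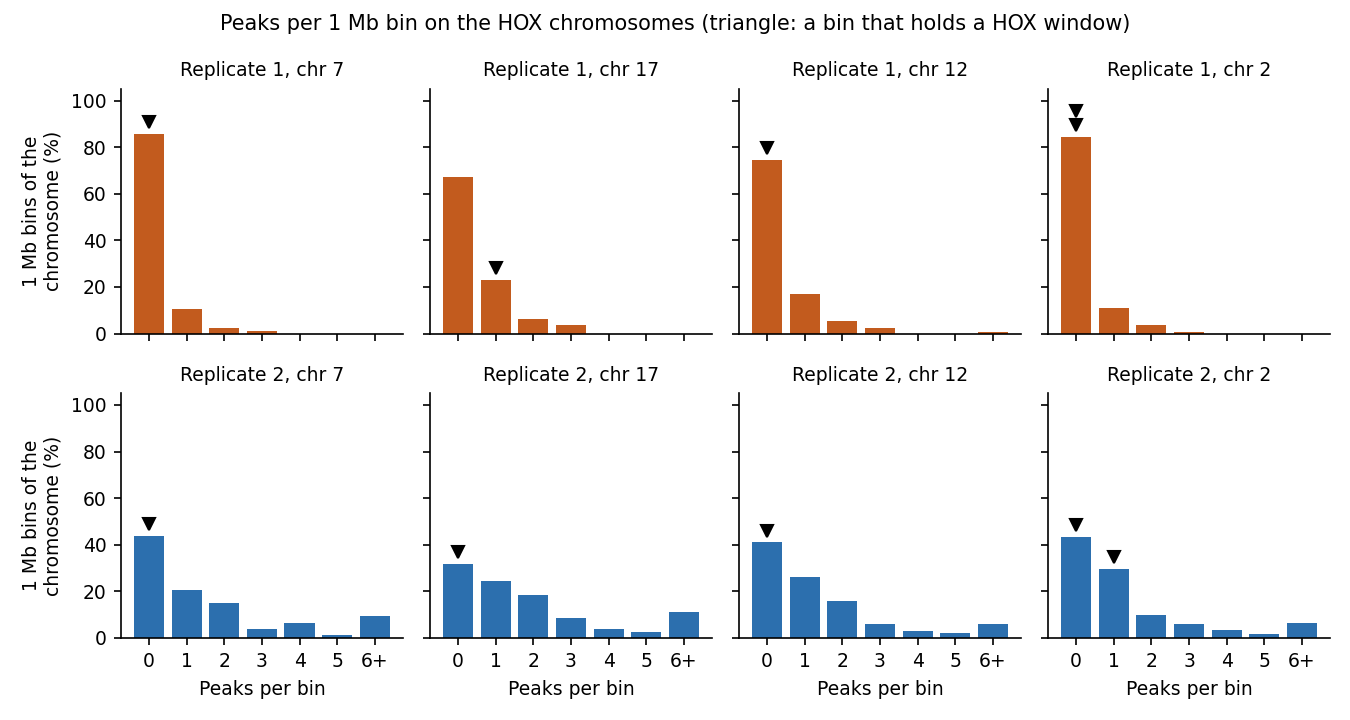
Share of the 1 Mb bins of each HOX chromosome (y axis, percent) by the number of peaks in the bin (x axis), for replicate 1 (upper row) and replicate 2 (lower row); each triangle marks a bin that holds a HOX window. In replicate 1 the HOX bins sit at 0 peaks except that of HOXB, and in replicate 2 they sit at 0 except 1 of the HOXD bins, which holds 1 peak.

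Distances from a window run from its edge unless stated, and distances from the genes were not measured. The peak closest to any HOX window lay 32.4 kb outside the HOXA window, on its low-coordinate side, which is the side of HOXA2 and SKAP2. It was a replicate 2 peak at chromosome 7 positions 26996742 to 26997631, 890 bp wide, in band 7p15.2. Its score, the authors' value per peak, was 152.05, at the 51.6th percentile of that list. Replicate 1 had no counterpart: its nearest peak to this site lay 3.16 Mb away. On the other side of HOXA, beyond EVX1, the nearest peak was the same site in both lists, 2.80 Mb from the window in 7p14.3 (30154947 to 30155988 in replicate 1). It scored 95.93 in replicate 1 and 1395.70 in replicate 2, at the 82.9th and 99.4th percentiles of the lists.

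The HOXB window had the next closest peak, 46.2 kb beyond its high-coordinate side, towards HOXB13, a gene active in the prostate, and TTLL6. This was a replicate 1 peak at chromosome 17 positions 46956184 to 46957248 with a score of 83.27, at the 76.0th percentile. The nearest replicate 2 peak to it was 688 kb away. In replicate 2 the peaks that bound the HOXB window lay 992 kb below (45507035 to 45507702, score 87.64) and 735 kb above it (47645297 to 47646312, score 94.24). On the low side replicate 1 had a peak 930 kb from the window (45569098 to 45570175, score 60.55), 61.4 kb from the replicate 2 one and not overlapping it. None of these 4 peaks was in both lists.

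The HOXC window had no peak within 500 kb in either list. In replicate 2 the nearest peaks lay 676 kb below it, towards HOXC13 (chromosome 12, 53552609 to 53553605, score 106.81), and 524 kb above it, towards HOXC4 (55073994 to 55074564, score 81.39). In replicate 1 they lay 1.84 Mb below (52386585 to 52387435, score 74.30) and 1.59 Mb above (56140286 to 56140906, score 50.22, close to the lowest score of the list, 50.03). The lower replicate 1 site was also a replicate 2 peak, with a score of 82.72.

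Around HOXD, the cluster whose tail-end genes pattern limbs and digits, replicate 2 had a peak 230 kb above the window, on the side of HOXD1 and MTX2 (chromosome 2, 177379538 to 177380201). Its score of 70.86 lies at the 1.18th percentile of the list, whose lowest score is 70.02. Below the window, beyond EVX2, the nearest replicate 2 peak was 2.29 Mb away (174562156 to 174563328, score 186.88). The replicate 1 peaks lay 3.89 Mb below (172962523 to 172963885, score 54.40) and 1.06 Mb above (178213905 to 178215986, score 62.01). Both of these were also found in replicate 2.

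Of the 16 peaks that flank the 4 windows in the 2 lists, 2 lay within 100 kb of a window, 1 in each list. The mean chromosome density would give 0.254 in replicate 1 and 1.49 in replicate 2 within that distance. A score of 100 was reached by 4 of the 16, all in replicate 2. The median score of the whole list was 147.9 in replicate 2 and 61.75 in replicate 1, so this count does not compare the lists. A score of at least 100 lowered the number expected in the windows at chromosome density from 2.565 to 1.84 in replicate 2. In replicate 1 that number fell from 0.444 to 0.0710. The order of the clusters by distance to the nearest peak depended on the list. In replicate 1 it was HOXB (46.2 kb), HOXD (1.06 Mb), HOXC (1.59 Mb) and HOXA (2.80 Mb). In replicate 2 it was HOXA (32.4 kb), HOXD (230 kb), HOXC (524 kb) and HOXB (735 kb). HOXB was first in one list and last in the other, and HOXA the reverse, so neither short distance was seen with both antibody batches.

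**Figure D3:**
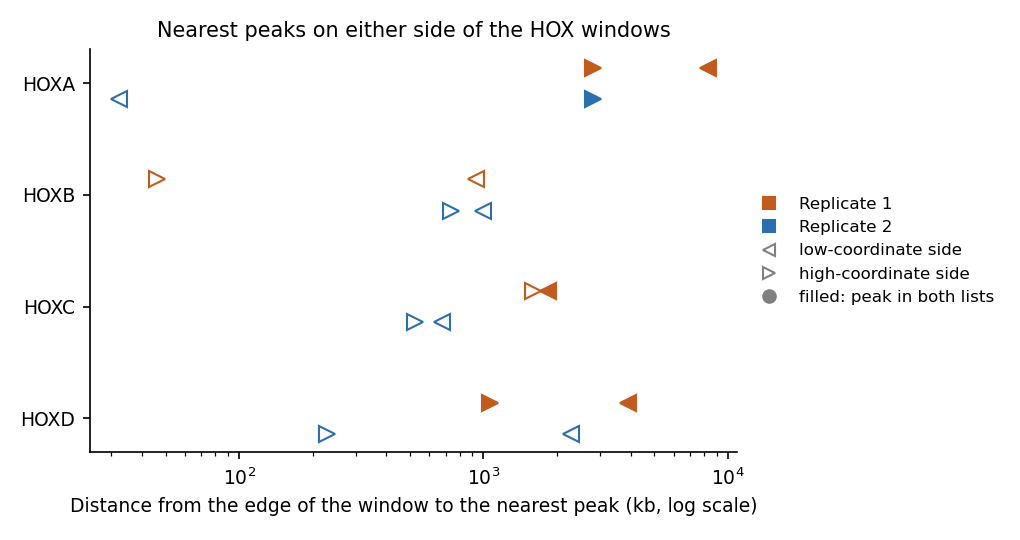
Distance from the edge of each HOX window to the nearest peak (x axis, kb, log scale), by cluster and replicate; the triangle points to the low- or high-coordinate side and is filled where the peak was in both lists. The 2 peaks under 100 kb, at 32.4 kb from HOXA and 46.2 kb from HOXB, are open symbols of different replicates.

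In replicate 2 the windows lay in peak-free stretches longer than the median of their chromosome. The stretch around HOXA was 3.16 Mb, the 11th longest of 325 on chromosome 7, where the median was 0.113 Mb. That around HOXB was 2.14 Mb (8th of 190, median 0.129 Mb), that around HOXC 1.52 Mb (26th of 221, median 0.164 Mb) and that around HOXD 2.82 Mb (22nd of 352, median 0.200 Mb). A point on a chromosome falls in a long stretch more often than in a short one, however: stretches at least as long covered 31.4% of chromosome 7, 26.2% of chromosome 17, 61.3% of chromosome 12 and 40.0% of chromosome 2. In replicate 1 the stretches were 11.4 Mb (HOXA, 4th of 32), 1.39 Mb (HOXB, 14th of 39), 3.75 Mb (HOXC, 12th of 54) and 5.25 Mb (HOXD, 14th of 52), and stretches at least as long covered 53.6%, 85.5%, 74.9% and 79.1% of the chromosomes.

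Measured from the middle of each window, the nearest replicate 2 peak was 192 kb away for HOXA, 940 kb for HOXB, 684 kb for HOXC and 380 kb for HOXD. The middle of a 1 Mb bin was a median of 417 kb from a peak on chromosome 7, 285 kb on chromosome 17, 356 kb on chromosome 12 and 418 kb on chromosome 2. HOXB was the most remote by this measure, with 8.64% of the bins of chromosome 17 at least as far from a peak, against 67.3%, 34.3% and 52.7% for HOXA, HOXC and HOXD on their chromosomes. In replicate 1, HOXB was the least remote, at 251 kb, and 86.4% of the bins of chromosome 17 were at least as far.

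Farther out, peaks of both lists were present on both sides of HOXB, HOXC and HOXD. Within 5 Mb of the window edges, a distance chosen after the lists had been seen, replicate 2 held 6 peaks around HOXA, 8 around HOXB, 15 around HOXC and 12 around HOXD. The mean chromosome density would give 20.4, 23.3, 16.4 and 14.4. Without the outer 5 Mb of each chromosome arm and the centromere bands, where peaks can be dense, it would give 12.7, 16.7, 11.7 and 11.0. The 95% exact Poisson interval of the HOXA count (2.20 to 13.1) holds the latter value and not the former, and that of HOXB (3.45 to 15.8) holds neither. Of zones of 10 Mb centred on the inner bins of chromosome 17, 8.45% held as few replicate 2 peaks as the HOXB surroundings, against 38.3% for HOXA on chromosome 7, 79.8% for HOXC on chromosome 12 and 66.5% for HOXD on chromosome 2. Replicate 1 held 1, 6, 5 and 5 peaks around HOXA, HOXB, HOXC and HOXD, against 1.95, 4.68, 3.96 and 2.10 at chromosome density, and each of these values lay within the interval of its count.

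**Figure D4:**
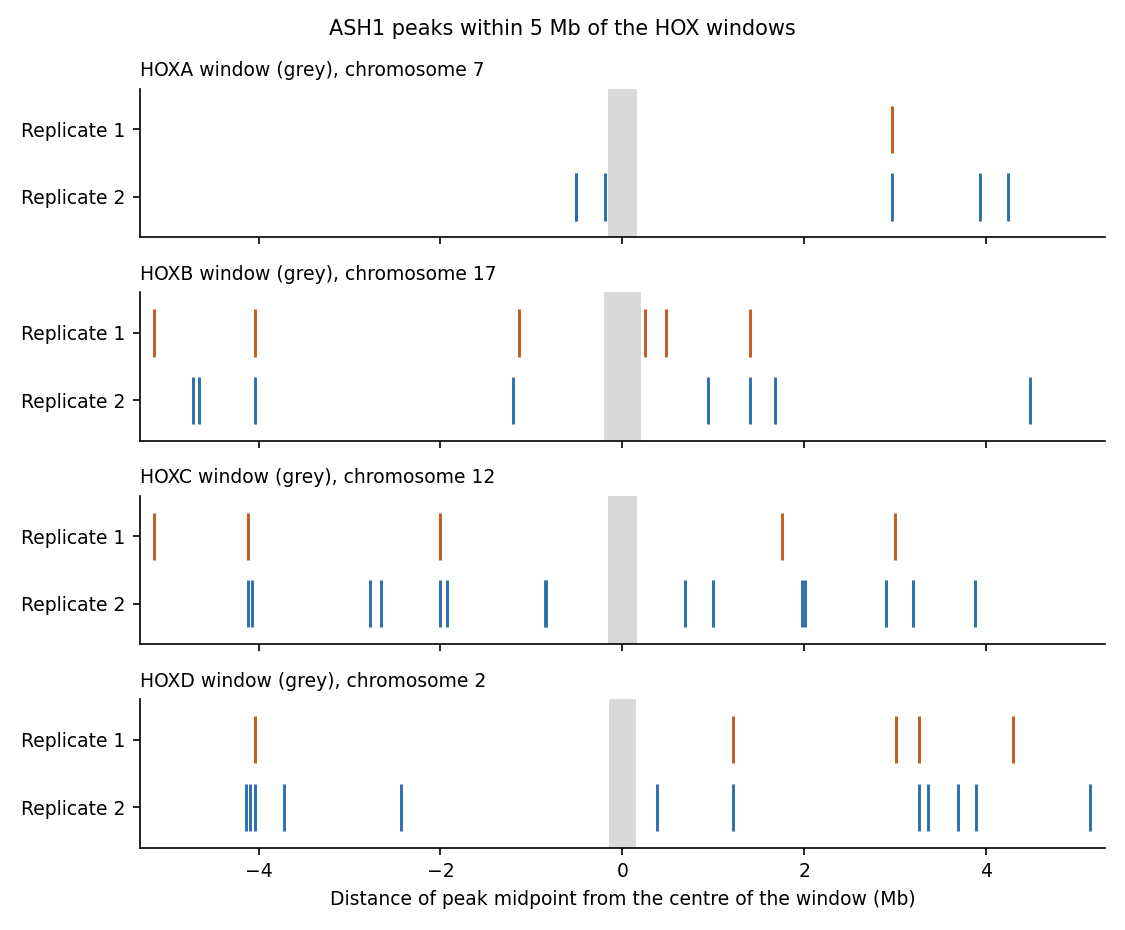
Peaks within 5 Mb of the 4 HOX windows, each drawn as a line at the distance of its midpoint from the centre of the window (x axis, Mb), with replicate 1 above replicate 2; the grey band is the window. No line falls in a grey band, and the nearest lines lie just below the HOXA window in replicate 2 and just above the HOXB window in replicate 1.

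Within 5 Mb of the 4 windows lay 17 replicate 1 peaks and 41 replicate 2 peaks. Over the assembled chromosomes, 466 of 905 replicate 1 peaks and 459 of 4596 replicate 2 peaks were in both lists. Within these 5 Mb, 8 sites were in both lists: 1 near HOXA, 2 near HOXB, 2 near HOXC and 3 near HOXD. The one with the highest replicate 1 score lay 1.19 Mb above the HOXB window in 17q21.33 (48100697 to 48102912), at 468.76 in replicate 1 and 1527.37 in replicate 2, and was the highest replicate 1 peak of chromosome 17. The closest to a window was the 2q31.2 site 1.06 Mb above HOXD, at 62.01 and 285.21. A second 2q31.2 site, 3.11 Mb above HOXD (180261886 to 180262840), scored 82.30 and 1274.60. Sites in 12q13.12, 3.96 Mb below HOXC (50271627 to 50274789), and in 17q21.31, 3.83 Mb below HOXB (42667149 to 42668842), scored 229.48 and 938.52, and 118.27 and 798.57. The 8 sites lay 1.06 to 3.96 Mb from a window. Whether a site inside a window could have been detected was not tested.

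The bands that hold the windows had peaks in both lists except 7p15.2, which had 0 in replicate 1. In replicate 2, 7p15.2 (HOXA) held 3 peaks, 17q21.32 (HOXB) held 1, 12q13.13 (HOXC) held 6 and 2q31.1 (HOXD) held 7, against 5.09, 5.82, 5.59 and 12.0 at chromosome density. The chromosome value lay within the 95% exact Poisson interval of the count for HOXA (0.619 to 8.77), HOXC (2.20 to 13.1) and HOXD (2.81 to 14.4), and above it for HOXB (0.0253 to 5.57). Without chromosome ends and centromere bands the HOXB value was 4.18, and in bands of the same staining class it was 2.27, both within that interval. The same-class bands of chromosome 17 include 17q21.32 itself and held 5 replicate 2 peaks in all. The value of 2.27 thus compares the band partly with itself. In bands of the same class the HOXD value was 16.9, above its interval. These densities were applied to the bands after the data had been seen. In replicate 1 the counts were 0, 3, 1 and 2, against 0.487, 1.17, 1.35 and 1.74. The band of HOXB thus had the fewest peaks of the 4 in replicate 2 and the most in replicate 1.

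The highest peaks of the 4 chromosomes lay 1.19 to 101 Mb from the HOX windows. In replicate 2 they were in 7q11.21 (64953684 to 64956076, score 1597.67), 17q21.31 (41399430 to 41401561, score 2738.31), 12q24.33 (132060612 to 132062307, score 3100.0) and 2q12.3 (109815394 to 109816782, score 1910.30), and none of the 4 was in both lists. In replicate 1 they were the 17q21.33 site above HOXB and sites in 7q32.1 (128527354 to 128528461, score 113.76), 12q24.33 (131248432 to 131250577, score 252.20) and 2q37.3 (242576271 to 242577410, score 860.74), and all 4 were in both lists. Of all peaks on the assembled chromosomes, 459 of 4596 in replicate 2 and 466 of 905 in replicate 1 were in both lists. The median scores of the 4 chromosomes lay between 61.2 and 63.5 in replicate 1 and between 151 and 178 in replicate 2.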

How the data were processed

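ChIP-seq peaks were taken as deposited, 1 list per sample. BWA and MACS were used, per the submitters' processing notes. Their versions, the settings and any control were not given in the sources used here. Coordinates were taken as hg19: 0 peaks of either list end past their chromosome in hg19, against 33 and 164 in GRCh38. The score of each peak is the authors' deposited value. It was read from its form as 10 times the negative log10 of a p-value, as MACS writes it, and used only to rank or filter within a list. The lists end at 50.03 and 70.02, so a weaker site would be in neither.

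The 38 genes, windows and tests were chosen with earlier results of these data known. A peak counted as inside a window from 1 bp of overlap, and in a bin or band by its midpoint. Positions are 1-based. For a count of 0 the limit is 3 counts, and other intervals are 95% exact Poisson intervals. Those intervals are two-sided and for a count of 0 would end at 3.69, so the limit of 3 is the lower of the bounds. The bin test is an exact binomial test with Benjamini-Hochberg adjustment. It was checked on simulated lists of evenly spread peaks, with and without bins of many added peaks. That check covers neither clustered peaks nor low counts. Peaks named are the nearest on either side of each window, the highest of each chromosome and, chosen after their values were seen, the sites in both lists within 5 Mb. Full chromosome lengths, gaps included, and bands came from circlize 0.4.16 (hg19). Gene names and promoters came from RefSeq (GRCh38.p14), and no gene was placed in hg19. Copy number was not measured. Computations used scipy 1.17.1, numpy 2.4.6 and pandas 2.3.3 under Python 3.11.15, with figures from matplotlib 3.10.9 and bands read in R 4.3.3.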

Additional observations from a re-analysis of the deposited data

Results flagged for a closer look

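Peaks outside the assembled chromosomes entered no comparison and exceeded the limit of 3 counts, with 5 in replicate 1 and 50 in replicate 2 and no control sample to set beside them. Of these, 3 replicate 2 peaks lay on sequence assigned to chromosome 7 but outside the assembled chromosome, with scores from 73.31 to 258.38. On such sequence of chromosome 17 lay 1 replicate 2 peak, with a score of 327.76. Replicate 1 had 0 peaks on such sequence of chromosomes 2, 7, 12 or 17. Which part of the chromosome such sequence belongs to was not determined.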

How the results depend on the processing

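The 4 HOX windows held 0 peaks in both lists with scores of at least 70 or 100, with the midpoint rule and with either replicate left out (lowest and highest value 0 and 0). Extended by 100, 500 or 1000 kb on each side they held 1, 2 and 3 peaks in replicate 1 and 1, 4 and 10 in replicate 2, against 0.698, 1.71 and 2.98, and 4.05, 10.0 and 17.5, at chromosome density. Extended by 5 Mb, a distance added after the data were seen, they held 17 and 41 against 13.1 and 77.1. The number expected in the windows, 0.444 in replicate 1, became 0.369 without chromosome ends and centromere bands, 0.559 in bands of the same staining class, and 0.178 and 0.0710 with scores of at least 70 and 100, and the limit went from 6.76 to 8.12, 5.37, 16.8 and 42.3 times the density. In replicate 2 it went from 2.565 to 2.004 at the density of all chromosomes, 1.80 without ends and centromere bands, 2.07 in bands of the same class and 1.84 with scores of at least 100, so that the limit became 1.45 to 1.67 times the density. Bands of the same class include the band of the window itself. On chromosome 17 all 3 replicate 1 peaks of that class lay in 17q21.32. None of the HOX bins was called in 7 alternatives per list (shifted bins, 2 Mb bins, tiles of window length and scores of at least 70), and the lowest adjusted p was 0.4. With both lists merged, the distance to the nearest peak fell to 32.4 kb for HOXA in replicate 1, 46.2 kb for HOXB in replicate 2, 524 kb for HOXC and 230 kb for HOXD in replicate 1. With scores of at least 70, the replicate 1 distance was 1843 kb for HOXC and 3112 kb for HOXD. No paired analysis was possible because the samples form a single group. Depth is unknown, so it cannot be told whether a site missing from a list was unbound or only below the threshold of that list.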
